A study of Homo sapiens with 32 samples.

Results

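The rows described here are 5 microRNA hairpins of the 22q11 region on human chromosome 22: mir-1306 and mir-3618, which are both embedded in the transcript of DGCR8, and mir-185, mir-1286 and mir-649, which belong to nearby transcription units and serve as local controls for an edit in DGCR8. They were chosen by name, not by their counts, from a small RNA read-count table with 1513 miRNA rows, and 4 of the 5 had a row. The row for mir-649 was not found and its level was not analysed here. The cells were 293T, a human embryonic kidney line that expresses the SV40 large T antigen, kept as 8 clones. Clones 52, 55, 57 and 67 were wild type, and clones 30, 34, 42 and 43 had the genotype DGCR8 delta103-126Q, in which prime editing had removed the reported binding site for ERH from the N-terminal part of DGCR8. Each clone received, in separate transient transfections, 1 of 4 shRNA vectors: control shRNA_1 and control shRNA_2, which target no gene, or shERH_1 and shERH_2, which target ERH. In all groups, transfected cells were selected with puromycin and then sorted on day 5 by the fluorescence that the shRNA vector confers. Total RNA was isolated at once, and 4 synthetic spike-in RNAs were added to it. The comparisons ask whether the deletion, the knockdown or both change mature miRNA levels. The clone is the replicate, with the 2 libraries of each arm summed, which gives 4 values for each genotype and arm.

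Microprocessor, the nuclear complex of the RNase DROSHA and its partner DGCR8, cuts hairpins out of primary transcripts as the first step of miRNA maturation. ERH, a small conserved protein, binds the N-terminal part of DGCR8, and is known for helping Microprocessor with hairpins that are poor substrates on their own. DGCR8 also carries hairpins in its own mRNA, in the 5′UTR and at the start of the coding sequence, and their cleavage by Microprocessor destabilises the mRNA and so limits DGCR8 itself. The edited clones therefore differ from wild type both in the DGCR8 protein and in the transcript that holds mir-3618 and mir-1306. These effects cannot be told apart in this design, nor can fewer cells with a miRNA be told apart from less miRNA per cell in these bulk samples. The table holds no value for ERH or DGCR8 mRNA, so the knockdown and the deletion could not be checked in the libraries.

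The mature sequences are shown because the counts stand for these RNAs, with the seed (bases 2 to 8), which sets target choice, in capitals. They are from RefSeq on build GRCh38.p14, written 5′ to 3′. The table names hairpins without an arm, so counts of the 5p and 3p products cannot be separated.
hsa-miR-1306-5p: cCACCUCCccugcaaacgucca
hsa-miR-1306-3p: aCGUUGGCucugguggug
hsa-miR-3618: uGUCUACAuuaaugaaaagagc
hsa-miR-185-5p: uGGAGAGAaaggcaguuccuga
hsa-miR-185-3p: aGGGGCUGgcuuuccucugguc
hsa-miR-1286: uGCAGGACcaagaugagcccu
hsa-miR-649: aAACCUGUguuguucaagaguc
No seed was shared between these hairpins, so they form no seed family. The miR-185-5p seed was shared with 1 other mature sequence of RefSeq's table, hsa-miR-4306, and the other seeds with 0.

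Both DGCR8 hairpins lie in exon 2 of the gene, on the plus strand, upstream of the deleted stretch (coordinates are GRCh38, with GENCODE annotation). The mir-3618 hairpin spans chr22:20085746-20085833 in the 5′UTR and ends 130 bases before the start codon at position 20085964. The mir-1306 hairpin spans chr22:20086058-20086142 in the coding sequence, over codons 32 to 60, and 224 bases separate it from mir-3618. Read as amino acid positions, the numbers in the genotype's name give 24 codons (72 bases) at chr22:20086270-20086341, which start after a gap of 127 bases from the mir-1306 hairpin and of 436 bases from the mir-3618 hairpin. Read this way, the deletion holds no base of either hairpin. The meaning of the Q in the genotype's name is not given in the sources used here, so the edit may not be this stretch alone. The codons are printed as they read in the reference transcript, since the name places the edit there.
deleted DGCR8 codons: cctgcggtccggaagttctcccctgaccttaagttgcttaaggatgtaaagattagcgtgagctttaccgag
The other hairpins lie outside the DGCR8 transcript. mir-185 (chr22:20033139-20033220, plus strand) is in an intron of TANGO2, 53.0 kb from the deletion, and mir-1286 (chr22:20249134-20249211, minus strand) is in an intron of RTN4R, which encodes the Nogo receptor, 162.8 kb away. mir-649 (chr22:21034176-21034272, minus strand) lies opposite the antisense gene AC002472.1, at 947.8 kb.

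The 32 libraries held 1318923 to 6222790 miRNA counts, with a median of 2299477, and 9139 to 33090 spike-in counts. All 4 rows had counts in every library: 25 to 303 for mir-1306, 19 to 276 for mir-3618, 2842 to 13469 for mir-185 and 2 to 50 for mir-1286. The counts of mir-185 are therefore the most precise and those of mir-1286 the least. Levels are given as CPM (counts relative to the library total of miRNA counts), scaled by the trimmed mean of M-values (TMM), and differences as log2 fold changes from edgeR's quasi-likelihood test with Benjamini-Hochberg adjustment over all rows tested.

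mir-1306 was lower in the deletion clones under control shRNAs and was lower under the ERH shRNAs in every clone. In wild type under the control shRNAs its level was 78.7, 65.9, 92.8 and 132.9 CPM in clones 52, 55, 57 and 67 (mean 92.6 ± 29.03, SD, n = 4). In the deletion clones 30, 34, 42 and 43 it was 24.0, 41.7, 32.4 and 27.5 CPM (31.4 ± 7.68, SD, n = 4). The highest deletion clone was below the lowest wild-type clone, so the groups did not overlap. The log2 difference was -1.53 ± 0.30 (SE; 95% confidence interval -2.18 to -0.88; edgeR adjusted p = 0.00796), a level 2.89 times lower. Of 536 rows tested, 25.9% passed the threshold of adjusted p under 0.05 and 7.09% did so as lower, and mir-1306 had the 5th lowest value. The genotypes did not overlap for 29.3% of rows, with the deletion clones lower for 10.3%. mir-1306 was the only row of the 4 to pass.

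Under the ERH shRNAs the order of genotypes was the same. mir-1306 was at 39.9, 30.0, 26.2 and 55.9 CPM in wild-type clones 52, 55, 57 and 67 (38.0 ± 13.2, SD, n = 4). It was at 11.3, 12.5, 18.8 and 12.6 CPM in deletion clones 30, 34, 42 and 43 (13.8 ± 3.40, SD, n = 4). Again the groups did not overlap, which held for 10.7% of 569 rows, and with the deletion lower for 1.93%. The difference of -1.47 ± 0.32 (SE; interval -2.16 to -0.78) was close in size to that under control shRNAs, and it was the 8th lowest of 569. It did not pass in edgeR (adjusted p = 0.0877), where 0.0% of rows passed (0 rows, with 87, or 15.3%, at an unadjusted p under 0.05, and 11 rows called by DESeq2). DESeq2 called mir-1306 (-1.56, adjusted p = 0.000545).

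mir-1306 was lower under ERH than under control shRNAs in 8 of 8 clones. The log2 change per clone from control to ERH shRNAs was -0.98, -1.13, -1.82 and -1.25 in wild-type clones 52, 55, 57 and 67, and -1.08, -1.74, -0.78 and -1.13 in deletion clones 30, 34, 42 and 43. Over all clones, with the clone as a block, it fell by 1.24 on the log2 scale (SE 0.16; edgeR adjusted p = 2.27e-06), where 36.6% of 667 rows passed, 16.5% of the 667 were called lower, and 9.6% were lower in all 8 clones. It had the 20th lowest value of the 667 rows. Without the block it was -1.26 and did not pass (edgeR adjusted p = 0.0766). That fit has no genotype term, so the gap between the genotypes enters its spread. Within each genotype mir-1306 passed without the block (wild type -1.24, edgeR adjusted p = 0.0313, deletion clones -1.21, adjusted p = 0.0448). With the block, the change was -1.25 ± 0.21 (SE; edgeR adjusted p = 0.000288; 31.3% of 613 rows passed) in wild type and -1.21 ± 0.19 (adjusted p = 0.00285; 10.3% of 633 rows) in the deletion clones. The difference between these, 0.11 ± 0.28 (SE; interval -0.49 to 0.71; edgeR adjusted p = 0.873), did not pass. In that test 0.0% of rows passed (0 rows, with 127, or 19.0%, at an unadjusted p under 0.05 and 19 by DESeq2).

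The 4 group levels of mir-1306 ran from wild type with control shRNAs, through wild type with ERH shRNAs and the deletion with control shRNAs, to the deletion with ERH shRNAs. The first and last means differed 6.70-fold. The 2 groups between overlapped, at 26.2 to 55.9 and 24.0 to 41.7 CPM.

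**Figure D1:**
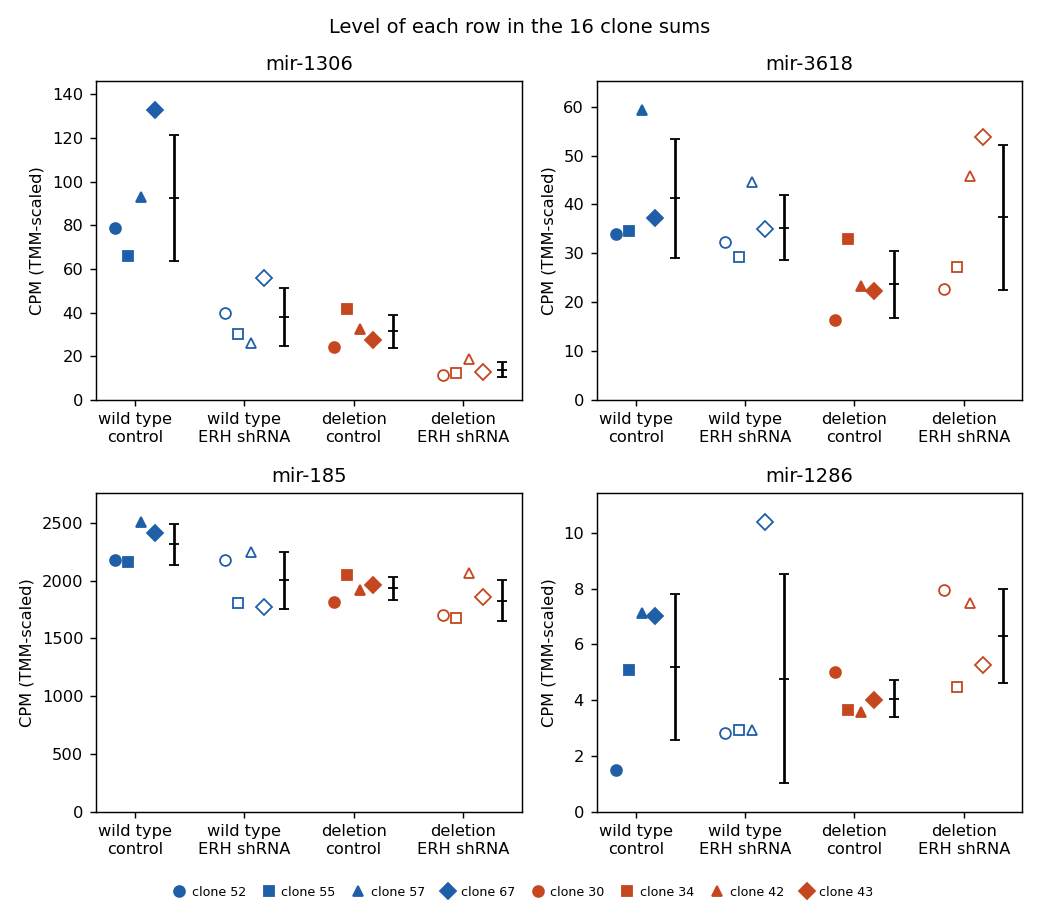
Level of each hairpin in CPM (y axis, linear from 0) in the 4 groups of genotype and shRNA arm (x axis), with 1 point per clone and the mean and SD of 4 clones. mir-1306 falls from a mean of 92.6 to 13.8 CPM across the groups, mir-3618 has its lowest mean (23.7) in the deletion clones under control shRNAs, and mir-185 stays between means of 1827 and 2312.

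mir-3618, the 5′UTR hairpin of the same transcript, did not pass the test for the deletion or for the knockdown. Under control shRNAs it was at 33.9, 34.6, 59.3 and 37.3 CPM in wild-type clones 52, 55, 57 and 67 (41.3 ± 12.1, SD, n = 4), and clone 57 stood above the other three. In deletion clones 30, 34, 42 and 43 it was at 16.4, 32.9, 23.2 and 22.2 CPM (23.7 ± 6.83, SD, n = 4). The groups did not overlap, as for 29.3% of all 536 rows (10.3% with the deletion lower), and deletion clone 34 was close to wild-type clones 52 and 55. The log2 difference of -0.77 ± 0.31 (SE; interval -1.45 to -0.09) did not pass in edgeR (adjusted p = 0.0837). It was the 50th lowest of 536. It passed in DESeq2 (-0.87, adjusted p = 0.0281), and without clone 57 the edgeR value was -0.49 (adjusted p = 0.269).

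Under ERH shRNAs the genotypes overlapped for mir-3618. Wild-type clones 52, 55, 57 and 67 held 32.4, 29.2, 44.5 and 34.9 CPM (35.3 ± 6.59, SD, n = 4), and deletion clones 30, 34, 42 and 43 held 22.7, 27.2, 45.8 and 53.7 CPM (37.4 ± 14.8, SD, n = 4). The highest and the lowest values of the arm were both from deletion clones. The difference was 0.07 ± 0.32 (SE; interval -0.62 to 0.76; edgeR adjusted p = 0.918).

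The knockdown change of mir-3618 differed in sign between clones. It was -0.06, -0.24, -0.41 and -0.10 on the log2 scale in wild-type clones 52, 55, 57 and 67, and 0.47, -0.27, 0.98 and 1.28 in deletion clones 30, 34, 42 and 43. All 4 wild-type clones were slightly lower, and 3 of 4 deletion clones were higher. In wild type the edgeR value was -0.16 ± 0.22 (SE; adjusted p = 0.605), over all clones 0.20 ± 0.19 (adjusted p = 0.437), and in the deletion clones 0.59 ± 0.23 (interval 0.077 to 1.104; adjusted p = 0.119). None passed. Without clone 34 the value in the deletion clones was 0.89 and passed (adjusted p = 0.00302). The difference between the genotypes, 0.82 ± 0.32 (SE; interval 0.148 to 1.498), did not pass over 667 rows (edgeR adjusted p = 0.213, unadjusted 0.0200).

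The ratio of mir-1306 to mir-3618 compares 2 products of 1 transcript within a clone and arm, and needs no scaling between sums. The 2 libraries of a sum were added as raw counts, so the deeper one weighs more. In clone 57 they held 2464819 (shERH_1) and 6222790 (shERH_2) miRNA counts. The ratio was taken as the log2 of the summed counts, each with 0.5 added. It was tested with 2-sided exact permutation tests over clones, with adjustment over the 12 ratio tests made. Under control shRNAs it was 1.21, 0.93, 0.64 and 1.83 in wild-type clones 52, 55, 57 and 67, and 0.55, 0.34, 0.48 and 0.31 in deletion clones 30, 34, 42 and 43. The genotypes did not overlap, and the deletion clones were lower by a mean of 0.73 (difference -0.73; exact permutation p = 0.0286, the smallest that 4 against 4 clones allow; adjusted p = 0.0490). Under ERH shRNAs it was 0.30, 0.04, -0.76 and 0.68 in wild type and -0.99, -1.12, -1.28 and -2.09 in the deletion clones, in the same clone order. Here the difference was -1.43 (exact permutation p = 0.0286, adjusted p = 0.0490), again without overlap.

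From control to ERH shRNAs the ratio of mir-1306 to mir-3618 fell in 8 of 8 clones, with a mean change of -1.44 ± 0.49 (SD, n = 8; exact sign-flip permutation p = 0.00781, the smallest that 8 clones allow; adjusted p = 0.0469). The change was -0.91, -0.89, -1.41 and -1.15 in the wild-type clones and -1.54, -1.46, -1.75 and -2.40 in the deletion clones. Every deletion clone thus changed more than every wild-type clone, and the difference of the changes was -0.70 (exact permutation p = 0.0286, adjusted p = 0.0490). The nearest clones were close, at -1.46 (clone 34) and -1.41 (clone 57). In the edgeR test of the difference of the knockdown effects, 19.0% of 667 rows had an unadjusted p under 0.05. How often other pairs of rows separate, in this or the other ratio comparisons, was not counted. The mir-1306 change itself was close to equal in both genotypes, as given above. The mir-3618 change was higher on average in the deletion clones, but clone 34 was at -0.27. That difference between the genotypes did not pass (edgeR adjusted p = 0.213). These 4 adjusted p-values are just under the threshold: they were 0.0490 without clone 57, and between 0.0571 and 0.0980 without any 1 of the other clones, with the sign kept in each case. Single shRNAs ended calls too. With the first shRNA of each arm the adjusted exact permutation p-values were 0.206 for the deletion, 0.114 for the deletion under ERH shRNAs, 0.0469 for the knockdown and 0.190 for the difference of the changes. With the second they were 0.0686, 0.0980, 0.0686 and 0.0980.

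**Figure D2:**
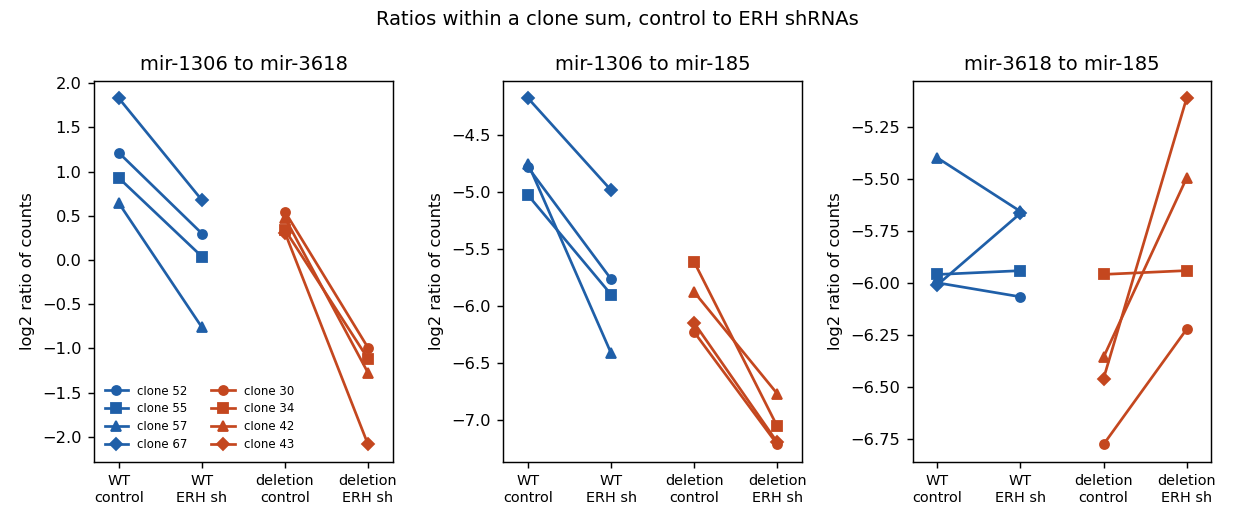
Log2 ratios of counts within a clone (y axis, a scale of its own per panel) for the 3 pairs of hairpins, in wild type (WT) and deletion clones under control and under ERH shRNAs (x axis), with a line joining the arms of each clone. The mir-1306 to mir-3618 lines fall in 8 of 8 clones, with mean changes of -1.79 in the deletion clones and -1.09 in wild type.

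mir-185, the TANGO2 intron hairpin, had the most counts of the 4 rows. Its level was 2174, 2157, 2509 and 2410 CPM in wild-type clones 52, 55, 57 and 67 under control shRNAs (2312 ± 174, SD, n = 4), and 1812, 2051, 1914 and 1962 CPM in deletion clones 30, 34, 42 and 43 (1935 ± 99.6, SD, n = 4). These ranges did not overlap, with the deletion lower, as for 10.3% of all 536 rows. Under ERH shRNAs the means were 2001 ± 247 and 1827 ± 180 CPM (SD, n = 4 each), and the ranges overlapped. The edgeR difference was -0.24 ± 0.16 (SE; interval -0.59 to 0.12; adjusted p = 0.303) for the deletion and -0.15 ± 0.10 (interval -0.36 to 0.06; adjusted p = 0.255) for the knockdown, where 6 of 8 clones were lower. Neither passed, and both intervals leave out a change as large as that of mir-1306.

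mir-1286, the RTN4R intron hairpin, rested on 6 to 62 counts per clone and arm. Its means were 5.18 ± 2.63 and 4.06 ± 0.66 CPM under control shRNAs in wild type and deletion, and 4.77 ± 3.76 and 6.29 ± 1.69 CPM under ERH shRNAs (SD, n = 4 each). The genotypes overlapped in both arms, and clone 67 under ERH shRNAs, at 10.4 CPM, was the highest value. The differences were -0.30 ± 0.46 (SE; interval -1.29 to 0.69; edgeR adjusted p = 0.656) for the deletion and 0.24 ± 0.30 (interval -0.38 to 0.85; adjusted p = 0.556) for the knockdown. Neither passed, and at this depth changes within these intervals are not excluded.

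Each DGCR8 hairpin was also set against mir-185. The log2 ratio of mir-1306 to mir-185 was lower in the deletion clones under control and under ERH shRNAs (differences -1.28 and -1.29; each exact permutation p = 0.0286, adjusted p = 0.0490, no overlap). It changed by -1.09 ± 0.30 with knockdown (SD, n = 8; lower in 8 of 8 clones; exact permutation adjusted p = 0.0469). The difference between genotypes in that change was -0.01 (exact permutation p = 0.914) and did not pass. The ratio of mir-3618 to mir-185 differed by -0.55 (exact permutation p = 0.114, adjusted p = 0.137) and 0.14 (p = 0.600, adjusted p = 0.655) between genotypes, and changed by 0.35 ± 0.54 with knockdown (SD, n = 8; lower in 2 of 8 clones; adjusted p = 0.135). The difference between genotypes in that change was 0.69, with overlap (exact permutation p = 0.0857, adjusted p = 0.129). None of these passed. For mir-1306 against mir-185, the 3 adjusted p-values under the threshold were 0.0490 without clone 57 and between 0.0571 and 0.0980 without any 1 of the other clones, with the sign kept. With a single shRNA per arm they were 0.0686 throughout, except 0.0469 for the knockdown with the first shRNA (exact permutation, adjusted). As above, these adjusted values depend on all 12 tests. Over the alternatives run, the deletion difference stayed between -1.40 and -1.11 under control shRNAs and between -1.53 and -1.03 under ERH shRNAs. The knockdown change ran from -1.49 to -0.63.

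**Figure D3:**
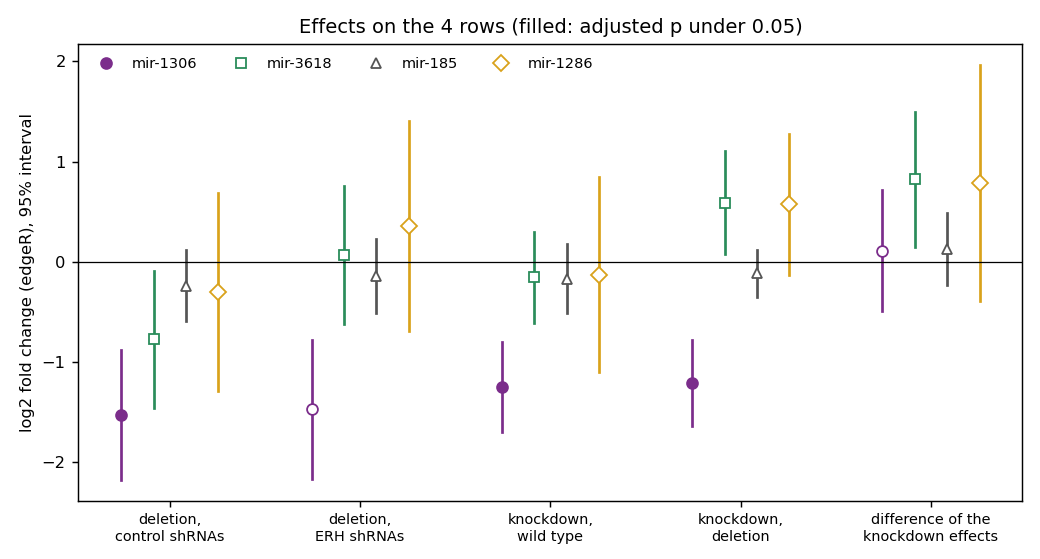
Log2 fold change with its 95% confidence interval from edgeR (y axis) of each hairpin, by colour and symbol, for the deletion under each arm, the knockdown in each genotype, and the difference of the knockdown effects (x axis), with filled symbols where the adjusted p was under 0.05. The mir-1306 intervals lie below 0 for the deletion and the knockdown, and those of mir-185 and mir-1286 include 0 in each comparison drawn. Those of mir-3618 leave out 0 for the deletion under control shRNAs (-1.45 to -0.09) and the knockdown in the deletion clones (0.077 to 1.104). So does that for the difference of the knockdown effects (0.148 to 1.498). Their adjusted p-values were not under 0.05.

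The scaling between libraries shifted every row. Spike-in scaling used the sum of the 4 spike-ins, and 92.6% of these counts came from 1 of them, so it rests mostly on that RNA. Against spike-in counts the median of all rows rose from -0.03 to 0.42 for the deletion and from 0.06 to 0.52 for the knockdown, and rows called higher and lower went from 101 and 38 to 134 and 0, and from 134 and 110 to 233 and 22. Against total miRNA counts the medians were 0.39 and 0.33, with 154 higher and 4 lower for the deletion and 210 and 36 for the knockdown. mir-1306 per 1000 spike-in counts was 9.16 ± 1.72 and 6.31 ± 3.22 in wild type under control and ERH shRNAs, and 4.40 ± 1.32 and 2.26 ± 0.352 in the deletion clones (SD, n = 4 each). Its spike-in scaled difference for the deletion was -1.06 ± 0.38 (SE; edgeR adjusted p = 0.0510), which missed the threshold, and for the knockdown -0.77 ± 0.20 (adjusted p = 0.00709). Within wild type alone, the spike-in scaled knockdown value of -0.63 missed it (edgeR adjusted p = 0.0917).

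Scaling multiplies all rows of a sum by 1 factor, so the distance of a row from the median of all rows stays nearly fixed. These distances therefore do not test whether the effects hold under other scalings. Relative to the median, mir-1306 was at -1.496 with TMM, -1.48 with spike-ins and -1.49 with total counts for the deletion, and at -1.30, -1.29 and -1.29 for the knockdown. mir-3618 was at -0.74, -0.73 and -0.71 for the deletion and at 0.14, 0.15 and 0.15 for the knockdown. Its absolute knockdown value passed with spike-ins (0.67, edgeR adjusted p = 0.0306). The sign of the mir-185 and mir-1286 deletion values, and of the mir-185 knockdown value, was positive with spike-in and with total scaling.

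**Figure D4:**
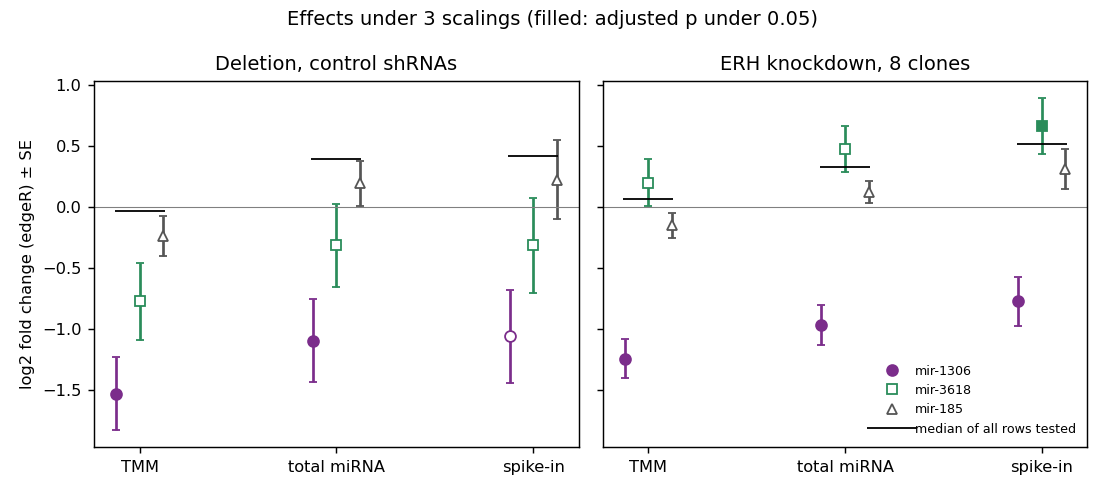
Log2 fold change and its SE from edgeR (y axis) of mir-1306, mir-3618 and mir-185 under TMM, total miRNA and spike-in scaling (x axis), for the deletion under control shRNAs and the knockdown over 8 clones, with filled symbols where the adjusted p was under 0.05 and a bar at the median of all rows tested. All points move up together from TMM to the other scalings, since a scaling shifts all rows of a sum alike. mir-1306 is at -1.496 to -1.29 relative to the median, a distance that this shift leaves nearly fixed.

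The 2 shRNAs of an arm were also compared. Under control shRNA_1 and control shRNA_2 mir-1306 was at 74.4 ± 20.2 and 102.6 ± 30.7 CPM in wild type, and at 26.8 ± 6.49 and 34.96 ± 10.8 CPM in the deletion clones (SD, n = 4 each). Under shERH_1 and shERH_2 it was at 41.0 ± 15.3 and 37.8 ± 10.1 CPM in wild type, and at 16.2 ± 6.29 and 11.4 ± 1.08 CPM in the deletion clones. Both ERH shRNAs thus gave lower means than either control shRNA in each genotype. The control shRNAs differed by 0.43 ± 0.15 for mir-1306 (log2, shRNA_2 over shRNA_1; edgeR adjusted p = 0.295, unadjusted 0.00976), which did not pass. In that test 0.0% of 571 rows passed (0 rows, with 48, or 8.41%, at an unadjusted p under 0.05 and 1 row by DESeq2). Pairing shERH_1 with control shRNA_1 gave a knockdown value of -0.84 for mir-1306 (edgeR adjusted p = 0.00181), and pairing shERH_2 with control shRNA_2 gave -1.52 (adjusted p = 2.03e-05).

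The same was done for mir-3618. In the deletion clones it was at 19.3 ± 5.75 and 27.3 ± 13.8 CPM under control shRNA_1 and control shRNA_2, and at 40.2 ± 18.5 and 34.3 ± 13.4 CPM under shERH_1 and shERH_2 (SD, n = 4 each). In wild type it was at 38.2 ± 15.8, 41.7 ± 8.67, 40.2 ± 0.854 and 27.5 ± 15.8 CPM in the same order. The knockdown value in the deletion clones was 0.96 with the first pair (edgeR adjusted p = 0.0216) and 0.25 with the second (adjusted p = 0.762), so it passed with the first pair and not with the second. In wild type it was 0.03 and -0.83, and neither passed (adjusted p = 0.944 and 0.123).

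Other hairpins of chromosome 22 were read as wider controls for the locus. Of 32 such rows, 15 were tested for the deletion, where 2 were higher, 1 was lower and 12 did not pass, with a median of -0.07 against -0.03 over all rows. Over all 536 rows 18.8% were higher and 7.09% lower, 25.9% together, so the called share of these few rows is near that of all rows. mir-4762 (1.26, edgeR adjusted p = 0.0366) and mir-4766 (1.07 ± 0.31, SE, adjusted p = 0.0244; chr22:40813883-40813958) were higher. mir-130b (chr22:21653304-21653385), a hairpin of 22q11, was at 3120 ± 168 CPM in wild type and 1760 ± 335 CPM in the deletion clones (SD, n = 4), lower by -0.81 ± 0.18 (SE, edgeR adjusted p = 0.0105). It was also the 1 row of 17 that passed for the knockdown (-0.53 ± 0.12, edgeR adjusted p = 0.00130), where 0 were higher and the median was -0.15 against 0.06. mir-3909 (chr22:35335640-35335758; 1.00, edgeR adjusted p = 0.0649) and mir-3928 (chr22:31160062-31160119; -0.76, adjusted p = 0.155) did not pass for the deletion. Nor did the other tested rows of this list in 22q11. These were mir-4761 (start at chr22:19963753, 0.50, edgeR adjusted p = 0.383) and mir-301b (start at chr22:21652981, -0.55, adjusted p = 0.156). Under ERH shRNAs 0 of 16 chromosome 22 rows passed, as did 0 of 569 rows in all.

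Rows that lie, like mir-1306 and mir-3618, within an exon of a protein-coding gene on the same strand numbered 137. For the deletion, 34 were tested, 2 were higher and 0 were lower in edgeR, beside 101 higher and 38 lower of all 536 rows, with a median of -0.16 against -0.03. The higher rows were mir-1304 in an exon of TAF1D (chr11:93733674-93733764; 273 ± 28.8 to 558 ± 41.0 CPM; 1.05 ± 0.20, edgeR adjusted p = 0.00796) and mir-4467 in LRWD1 (chr7:102471469-102471531; 0.96 ± 0.31, adjusted p = 0.0405). mir-4485, in MTRNR2L8, a copy of a mitochondrial sequence, so that its reads are uncertain, was at -0.93 (chr11:10508270-10508326; edgeR adjusted p = 0.0607), and mir-5001, in TIGD1, was at 0.88 (chr2:232550474-232550573; adjusted p = 0.0873). For the knockdown, 46 were tested, of which 9 were higher and 2 lower, mir-10a in HOXB4 (-0.36) and mir-1257 in TAF4 (-1.56), with a median of 0.12 against 0.06 over all rows. Over all 667 rows 20.1% were higher and 16.5% lower. The share called higher in this list is thus at the background, and the share called lower, 2 of 46, is below it. For the deletion the share called, 2 of 34, is also below the 25.9% of all 536 rows. These shares were not tested against each other. mir-1304, mir-4467 and mir-5001 were among the 9 called higher for the knockdown.

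Rows with another tested hairpin within 10 kb on the same strand, as mir-1306 and mir-3618 have in each other, were lower more often than higher. For the deletion 110 of them were tested, with 2 higher, 19 lower and a median of -0.39, beside 101 higher, 38 lower and a median of -0.03 over all 536 rows. For the knockdown 127 were tested, with 4 higher, 58 lower and a median of -0.33, beside 134 higher, 110 lower and a median of 0.06 over all 667 rows. These counts are with TMM: with spike-in scaling the calls over all rows turned to 134 higher and 0 lower for the deletion and to 233 and 22 for the knockdown, and the list was not counted under that scaling. Under ERH shRNAs 0 of 109 such rows passed for the deletion (median -0.23 against 0.04), and 0 of 34 exonic rows (median 0.02). These lists were made with results of these data known.

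Across the 16 sums of clone and arm, the rows most like mir-1306 in log2 CPM among 364 rows with a mean of at least 10 CPM were mir-30a (Pearson r = 0.92), mir-181b (0.90) and mir-24 (0.88). The r with mir-185 was 0.74 and with mir-3618 0.28, so the hairpin of the same exon followed mir-1306 less closely than the TANGO2 hairpin did. Those nearest to mir-3618 were mir-3928 (0.77), mir-484 (0.64) and mir-423 (0.62), and to mir-185 mir-23b (0.86), mir-769 (0.84) and mir-296 (0.84). For mir-1286 the highest were mir-941 (0.66), mir-196b (0.61) and mir-3127 (0.61). The sums share clones and treatments, so these values are descriptions over non-independent points.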

How the data were processed

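The deposited table holds raw read counts per miRNA row and spike-in for 32 libraries, made by the authors with the QIAGEN QIAseq miRNA kit, per the labels' protocols. The submitters' processing notes name SAMtools. The aligner, genome build, annotation and use of molecular identifiers are not given in the sources used here, so counts may include PCR duplicates. Of the rows, 1454 matched a GENCODE hairpin, 118 of them with several loci. No 2 libraries of a group agreed within sampling noise (chi-square per degree of freedom at least 75.4 over 48 pairs).

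Counts of the 2 shRNA libraries of each clone and arm were added, which left 16 sums. edgeR 4.0.16 (R 4.3.3; filterByExpr, TMM, quasi-likelihood) was fitted over all rows left, the knockdown with the clone as a block; spike-ins stayed out of the miRNA totals. The 2 arms of a clone come from the same clone, and their deviations from group means correlated at r = 0.33 to 0.59 over 667 rows in 8 clones. DESeq2 1.42.0, other scalings, filters and single shRNAs were alternatives. The fit was also run on simulated counts. These were drawn from a single mean per row without clone effects, so that run does not test the clone block. The rule for named rows was: the members, the 3 rows most like each, and up to 4 rows of the chromosome 22 and exonic lists with the largest deletion change at a mean of at least 10 CPM. Rows named beyond it (mir-4762, mir-4761, mir-301b, mir-10a, mir-1257) were chosen after their values were seen. The members and lists were chosen with earlier results of these data known. In the main fits the p-values of the deletion tests measure the spread between clones. Those of the knockdown, interaction and control shRNA tests measure the spread of the changes within clones.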

Additional observations from a re-analysis of the deposited data

Results flagged for a closer look

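Groups of 4 clones were searched for a clone far from the others, by its gap to the nearest clone as a share of the group's range, against Dixon's critical value at 95%. Chance alone gives about 1 in 20 groups, and 3 of 28 had one. mir-3618 in wild type under control shRNAs had clone 57 far above the others (0.8294 of the range on the log2 scale, just over that value), and the ratio of mir-3618 to mir-185 had the same clone apart in the same group (0.918). mir-1286 in wild type under ERH shRNAs had clone 67 far above the others (0.972), with 62 counts against 11 to 24. The knockdown change of the log2 ratio of mir-1306 to mir-3618 differed between the genotypes by -0.70 (exact permutation p = 0.0286, adjusted p = 0.0490 over 12 tests). How often ratios of other pairs of rows do so was not counted.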

How the results depend on the processing

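Over the alternatives run, 498 values kept their side and direction, 64 lost and 11 gained a call, 35 counts or values moved and 46 changed sign. Adjusted p-values are edgeR's unless DESeq2 is named. The pairing of arms by clone was in the knockdown and interaction fits. Without the replicate block, rows called fell to 28 for the knockdown over all clones, 74 in wild type and 13 in the deletion clones, and mir-1306 over all clones was -1.26 (adjusted p = 0.0766). The fit over all clones then has no genotype term. mir-1306 kept its call within wild type (-1.24, edgeR adjusted p = 0.0313) and within the deletion clones (-1.21, edgeR adjusted p = 0.0448).

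With DESeq2, mir-3618 passed for the deletion under control shRNAs (-0.87), mir-1306 passed under ERH shRNAs (-1.56), mir-3618 there was -0.018, and 11 rows passed there, 19 in the interaction and 1 between control shRNAs.

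With spike-in scaling, mir-1306 missed the threshold for the deletion under control shRNAs (-1.06) and for the knockdown in wild type (-0.63), and mir-3618 passed for the knockdown over all clones (0.67) and in the deletion clones (0.88), where 102 rows passed. Signs changed for mir-185 (0.22) and mir-1286 (0.21) in the deletion, for mir-185 in the knockdown over all clones (0.31), in wild type (0.45) and in the deletion clones (0.17), for mir-3618 (0.46) and mir-1286 (0.52) in wild type, for mir-1306 (-0.29) and mir-185 (-0.27) in the interaction, and for mir-185 between control shRNAs (0.079). With total miRNA scaling they changed for mir-185 (0.19) and mir-1286 (0.11) in the deletion, mir-185 under ERH shRNAs (0.077), mir-185 in the knockdown over all clones (0.12), in wild type (0.17) and in the deletion clones (0.073), mir-3618 (0.18) and mir-1286 (0.19) in wild type, and mir-1306 (-0.12) and mir-185 (-0.10) in the interaction. Then mir-3618 passed in the deletion clones (0.77), and 109 rows passed there and 29 in the interaction.

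With no filter on low counts mir-3618 passed for the knockdown in the deletion clones (0.57), 1 row passed for the deletion under ERH shRNAs and 19 in the interaction, where mir-1306 (-0.026) and mir-185 (-0.013) changed sign. With rows of at least 100 counts on average, fewer rows were tested: 76 passed for the deletion, 148 for the knockdown over all clones, 124 in wild type, 29 in the interaction and 1 between control shRNAs, and mir-1306 (-0.040) and mir-185 (-0.026) changed sign in the interaction. With each library as its own sample, 223 rows passed for the deletion, 55 under ERH shRNAs, 104 in the deletion clones and 52 in the interaction, and mir-3618 (-0.79) and, under ERH shRNAs, mir-1306 (-1.49) passed. This setting counts the libraries of a clone as separate replicates, and its deletion fits have no clone term. Its p-values are too small for a claim about clones, so calls gained there are not read as support.

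With the first shRNA of each arm, mir-3618 passed in the deletion clones (0.96) and mir-185 in wild type (-0.36), mir-3618 in wild type was 0.030, and 30 rows passed in the interaction. The ratio of mir-1306 to mir-3618 lost its calls for the deletion (-0.51), under ERH shRNAs (-1.19) and for the interaction (-0.68), and that to mir-185 for the deletion (-1.20, and -1.16 under ERH shRNAs), with 0.049 in the interaction. With the second, 35 rows passed for the deletion, 117 for the knockdown, 20 in wild type and 19 in the deletion clones. Signs changed for mir-3618 (-0.20) and mir-1286 (-0.15) in the knockdown, mir-1286 in the deletion clones (-0.22), mir-1306 in the interaction (-0.19) and the ratio of mir-3618 to mir-185 in the knockdown (-0.19). The ratio of mir-1306 to mir-3618 lost its calls (-0.85, -2.05, -1.30 and -1.21 for the deletion, the deletion under ERH shRNAs, the knockdown and the interaction), as did that to mir-185 (-1.33, -1.53 and -1.49). With a pseudocount of 5 the interaction of mir-1306 to mir-185 was 0.025.

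Leaving out each clone gave 83 to 129 rows for the deletion (83 without clone 34), 0 to 1 under ERH shRNAs, 159 to 230 for the knockdown (159 without clone 55), 112 to 197 in wild type, 30 to 119 in the deletion clones (119 without clone 34) and 0 to 35 in the interaction (35 without clone 52). mir-1286 ran from -0.44 to 0.26 for the knockdown in wild type. mir-3618 ran from -0.24 to 0.23 for the deletion under ERH shRNAs and from 0.36 to 0.89 for the knockdown in the deletion clones. In the interaction mir-1306 ran from -0.14 to 0.24 and mir-185 from -0.0035 to 0.20. The ratio of mir-1306 to mir-3618 ran from -0.90 to -0.51 for the deletion, -1.71 to -1.19 under ERH shRNAs, -1.52 to -1.30 for the knockdown and -0.81 to -0.49 for the interaction. That to mir-185 ran from -1.40 to -1.11, -1.51 to -1.03, -1.13 to -1.003 and -0.20 to 0.11, and that of mir-3618 to mir-185 under ERH shRNAs from -0.054 to 0.32. The cause of these changes was not tested. Depth limits mir-1286 most, with 2 to 50 counts per library.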
